A study of Rattus norvegicus with 4 samples.

Results

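Mitochondrial carriers of the Slc25 family are transporters, most of them in the mitochondrial inner membrane. Their messenger RNA is described here in NR8383 cells, a rat alveolar macrophage line obtained from lung lavage. The members are the rat RefSeq genes whose symbol is Slc25a followed by digits, together with the uncoupling protein genes Ucp1, Ucp2 and Ucp3. The RefSeq gene table holds 52 such symbols, of which 43 had at least 1 probe with a matching accession, so 43 of the 16579 measured genes are members. The other 9 symbols (Slc25a6, Slc25a12, Slc25a13, Slc25a26, Slc25a31, Slc25a36, Slc25a40, Slc25a48 and Slc25a52) had no named probe and are not analysed here. The single group analysed consists of 4 cultures, replicates 1 to 4, in which cells passaged 20 times were seeded for 48 h and exposed for 4 h to the COOH-functionalized carbon nanotubes NRCWE042 (dose 6.8 cm2/cm2). The design text calls the 4 cultures biological replicates, and each was read on 1 one-colour array. The design text also names unexposed cells, which are not analysed here, so no value below is an effect of the nanotubes and no test between conditions was made. The error given throughout is the spread between the 4 cultures of 1 cell line.

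Members of the family share a fold of membrane helices built from a repeated unit. Most move small solutes between the cytosol and the mitochondrial matrix, which the inner membrane otherwise keeps apart. Some exchange ADP for ATP or bring in phosphate for ATP synthesis, others pass on citrate, malate, glutamate, acylcarnitine, cofactors or iron, and the uncoupling proteins can let the proton gradient run down. In macrophages this traffic matters because citrate leaving the matrix feeds lipid synthesis, acylcarnitine entering it feeds fatty acid oxidation, and imported glutathione protects the respiratory chain.

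Levels are log2 processed signals minus the 75th percentile of the sample probes on the same array. Levels of different genes have no order because probes differ in brightness. High and low on a culture are meant on this scale: with arrays scaled by the spike-in controls instead, replicates 1 and 2 were high for most genes and replicate 4 was low for nearly all. A gene was called detected when the scanner software had at least 1 of its probes well above background on all 4 arrays. Where a gene had several probes, its brightest gave the level. Normexp values, where given, start from spot and background medians rather than the processed signal, with an offset of 50 added before the log2. They were centred on their own 75th percentile. Such an offset narrows log2 differences most where signals are small. The 75th percentile of the processed signal was 128, 131, 98.5 and 49.0 on replicates 1 to 4. How far the offset shaped the normexp values was not tested. The array of replicate 4 was the dimmest, with 31.1% of probes well above background against 35.2 to 38.8% on the others. Replicate 3 had an oval area near its centre in which signals were low. In it, 2246 sample spots had neighbours whose median lay more than 0.5 log2 units below the other arrays, down to -4.48. Members there were Slc25a17 (local median -3.29) and Slc25a34 (-3.13), while Ucp3 lay at the rim (-0.49). On replicate 4, 615 sample spots met the same limit, down to -1.11 (3 and 16 spots on replicates 1 and 2). Around Slc25a34 and Slc25a17 the local medians on replicate 4 were -0.82 and -0.48. All 10 macrophage marker genes were detected, among them Cd68 (7.47 ± 0.24, SD, n = 4 arrays), Csf1r (0.96 ± 0.10), Mrc1 (0.99 ± 0.42), Spi1 (3.73 ± 0.51), Pparg (6.11 ± 0.07), Ptprc (4.28 ± 0.14), Itgam (1.58 ± 0.27), Tyrobp (9.57 ± 0.13), Lyz2 (9.82 ± 0.17) and Ctsd (9.22 ± 0.26).

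**Figure D1:**
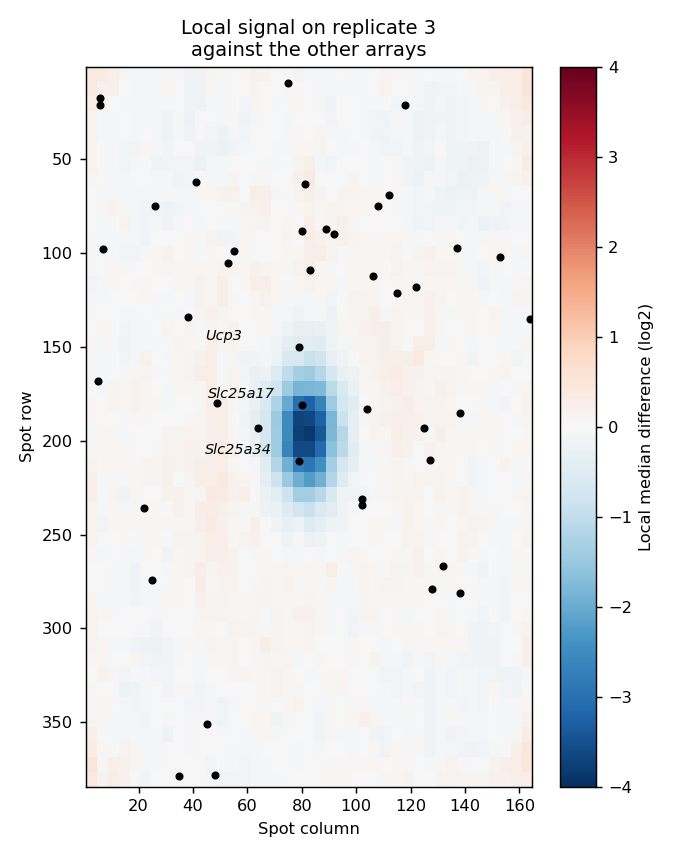
The map shows how far the local signal on replicate 3 lay from the other 3 arrays, as the median difference in log2 units around each place, by spot row and column. Black points are the spots of the 43 members (their brightest probes, the first spot where there were several), and only Slc25a17 and Slc25a34 lie inside the dark blue area (local medians -3.29 and -3.13), with Ucp3 at its rim.

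Most of the family was detected. Of the 43 measured members, 26 (60.5%) were detected on all 4 arrays, where 44.4% of all measured genes were. A further 7 were detected on 1 to 3 arrays, where 9.45% of all measured genes were, and 10 on none, with probe values between -4.86 and -2.02. Among the 296 other Slc genes measured, 114 (38.5%) were detected, as a description without a test. By role, detection reached 7 of 9 carriers of cofactors, glutathione and iron, 6 of 8 amino acid carriers, 5 of 8 nucleotide and phosphate carriers, 4 of 8 carboxylate and acylcarnitine carriers and 3 of 6 uncoupling proteins and relatives. Of the 4 members with no assigned role here, 1 was detected. When a signal only had to be positive and significant in the scanner output, 31 members counted as detected, and with every probe of a gene required, 22 did. Without replicate 3 the count was 27, with Slc25a17 added, and without replicate 4 it was 28, with Slc25a16 and Slc25a33 added. Shares of all measured genes under these other rules are not given here, so these counts describe the members only.

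**Figure D2:**
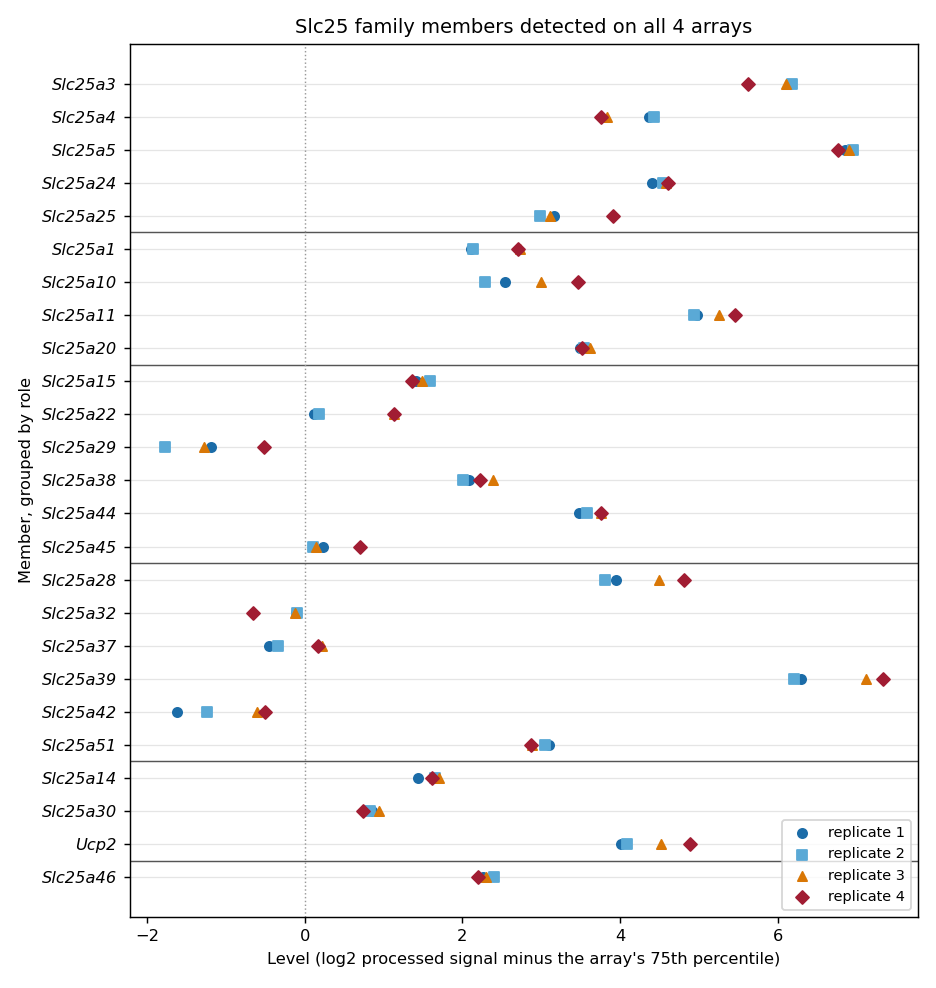
Each row is 1 of 25 of the 26 members detected on all 4 arrays, grouped by role with lines between groups, and each symbol is 1 culture; the horizontal axis is the level in log2 units relative to the array's 75th percentile (dotted line at 0). On this scale the symbols lie close together for Slc25a5, Slc25a20 and Slc25a24 and far apart for Slc25a39, Slc25a22 and Slc25a10. Rows are not to be ranked against each other.

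Carriers of adenine nucleotides and phosphate supply ATP synthase with its substrates and export its product. Slc25a5 encodes ADP/ATP carrier 2, the form typical of dividing cells, and read 6.86, 6.95, 6.90 and 6.76 on replicates 1 to 4 (6.87 ± 0.08). On this scale the cultures lay within 1.13-fold of each other and its other probe read 6.71 ± 0.09, but the SD was 0.35 under normexp background correction and 0.72 with spike-in scaling, with replicate 4 lowest. Slc25a4, which encodes ADP/ATP carrier 1, the form of heart and muscle, read 4.37, 4.43, 3.84 and 3.76 (4.10 ± 0.35). It was thus high on replicates 1 and 2 and low on replicates 3 and 4, with a span of 1.59-fold. The pair was not equal in its changes between cultures: the difference of Slc25a5 from its own mean minus that of Slc25a4 was -0.28, -0.25, 0.29 and 0.24, a value that no common scaling of an array can alter. Under normexp these differences were -0.20, -0.13, 0.19 and 0.13. The windows around the starts of both genes, 250 bases before to 50 after, are shown because these paralogs behaved differently between cultures, with each CpG dinucleotide in capitals, 5′ to 3′, from RefSeq on GRCr8 (chrX:120897366-120897665, plus strand, and chr16:52805271-52805570, plus strand).
Slc25a5: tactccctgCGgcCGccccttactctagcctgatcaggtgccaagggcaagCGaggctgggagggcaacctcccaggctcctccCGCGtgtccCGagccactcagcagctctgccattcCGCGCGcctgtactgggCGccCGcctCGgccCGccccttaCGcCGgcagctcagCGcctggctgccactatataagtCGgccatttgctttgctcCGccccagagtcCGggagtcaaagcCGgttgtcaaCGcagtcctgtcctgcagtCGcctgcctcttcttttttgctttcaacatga
Slc25a4: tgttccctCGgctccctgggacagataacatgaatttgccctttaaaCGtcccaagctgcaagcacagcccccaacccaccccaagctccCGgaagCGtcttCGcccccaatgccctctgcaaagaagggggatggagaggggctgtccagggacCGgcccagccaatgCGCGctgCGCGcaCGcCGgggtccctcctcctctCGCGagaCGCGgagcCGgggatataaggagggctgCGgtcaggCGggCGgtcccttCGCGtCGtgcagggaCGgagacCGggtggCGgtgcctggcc
The first holds 22 CpGs and the second 26. GGGCGG, the core of the GC box bound by Sp1, matched 3 times in the first and 1 time in the second, counting both strands. The CCAAT box matched 0 and 2 times.

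The phosphate carrier gene Slc25a3 read 6.15, 6.18, 6.10 and 5.62 (6.01 ± 0.26). Replicate 4 was the low one. The spots around its probe, at the edge of the array, were also low on replicate 4 (local median -0.30), and with local medians subtracted its differences from its own mean were 0.01, 0.00, 0.11 and -0.12. Under normexp they were 0.24, 0.31, 0.25 and -0.80. Among the calcium-regulated carriers of ATP-Mg and phosphate, Slc25a24 read 4.40, 4.54, 4.58 and 4.61 (4.53 ± 0.09), measured on 10 spots per array. Slc25a25 read 3.16, 2.99, 3.11 and 3.90 (3.29 ± 0.41), high on replicate 4. After subtraction of local medians replicate 4 lay 0.49 above the mean, but under normexp the differences were 0.22, 0.07, -0.44 and 0.14, with replicate 1 highest and replicate 3 lowest. Slc25a23 and Slc25a41, further members of this subgroup, were not above background by the scanner's mark on any array. Slc25a33, a pyrimidine nucleotide carrier, was detected on replicates 1 to 3 only, at -1.95, -1.78 and -1.96, and read -2.52 on replicate 4, the dimmest array.

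Carboxylate and acylcarnitine carriers link the citric acid cycle and fatty acid oxidation with the cytosol. The citrate carrier gene Slc25a1 read 2.11, 2.13, 2.73 and 2.70 (2.42 ± 0.35), higher on replicates 3 and 4 on this scale. Its SD was 0.20 with local medians subtracted, and under normexp the differences were -0.03, 0.05, 0.09 and -0.10, with replicate 4 lowest. Slc25a10, the dicarboxylate carrier that exchanges malate or succinate for phosphate, read 2.54, 2.29, 2.99 and 3.47 (2.82 ± 0.52). The highest and lowest cultures differed by 2.26-fold, and its SD was 0.55 with local medians subtracted, 0.35 under normexp and 0.15 with spike-in scaling. Slc25a11, the 2-oxoglutarate/malate carrier of the malate-aspartate shuttle, read 4.98, 4.94, 5.26 and 5.46 (5.16 ± 0.25), higher on replicates 3 and 4 on this scale, with an SD of 0.13 after local subtraction. Under normexp its differences were -0.15, -0.14, 0.34 and -0.04, so replicate 4 fell below the mean. Slc25a20, which brings acylcarnitine into the matrix for oxidation, read 3.49, 3.54, 3.62 and 3.52 (3.54 ± 0.05), the smallest SD of the 26 detected members on this scale, though 0.25 under normexp. Slc25a21, a carrier of 2-oxoadipate and related acids, and Slc25a47, known from liver, were not above background by the scanner's mark on any array. Slc25a34 and Slc25a35, whose substrates are not settled, were each detected on replicate 1 only, at -2.44 and -2.36, and read -4.74 to -2.74 and -3.35 to -2.54 on the others. Local medians around the Slc25a34 probe were 0.86, 0.91, -3.13 and -0.82 on replicates 1 to 4.

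Amino acid carriers serve glutamate breakdown, the urea cycle, haem and branched-chain amino acid metabolism. The glutamate carrier gene Slc25a22 read 0.12, 0.19, 1.14 and 1.13 (0.64 ± 0.57). Replicates 3 and 4 were higher, and the span was 2.03-fold. The spots around its probe moved the same way (local medians -0.26, -0.33, 0.36 and 0.25), and with these subtracted the SD was 0.23 (0.30 under normexp). Its other probe was not above background by the scanner's mark on any array. Slc25a29, a carrier of basic amino acids, read -1.18, -1.76, -1.27 and -0.51 (-1.18 ± 0.52), with replicate 2 the lowest and replicate 4 the highest, also under normexp, where the SD was 0.25. Slc25a44, which carries branched-chain amino acids into mitochondria, read 3.48, 3.58, 3.76 and 3.76 (3.65 ± 0.14), while its second probe was detected on no array. Slc25a38, linked to glycine import for haem synthesis, read 2.08, 2.01, 2.39 and 2.22 (2.18 ± 0.17). Both genes stayed within 1.30-fold across cultures on this scale. The ornithine carrier gene Slc25a15 read 1.41, 1.59, 1.48 and 1.37 (1.46 ± 0.10) on its brightest probe. Another of its probes was detected on replicates 1 and 2 only, and the last on none. Slc25a45 read 0.24, 0.11, 0.14 and 0.70 (0.30 ± 0.27), high on replicate 4. Slc25a2, another ornithine carrier, and Slc25a18, a second glutamate carrier, were not above background by the scanner's mark on any array.

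Among carriers of cofactors, glutathione and iron was the widest of the 26 detected members on the 75th percentile scale. Slc25a39, needed for import of glutathione into mitochondria, read 6.29, 6.20, 7.11 and 7.33 (6.73 ± 0.57). Replicates 3 and 4 were higher than replicates 1 and 2, by up to 2.18-fold. A second probe of the gene read 5.55, 5.41, 6.45 and 6.55, with the same cultures high. Local medians around the brighter probe, averaged over its 2 spots, lay between -0.06 and 0.07. Around the second probe they were -0.18, -0.23, 0.31 and 0.18 and so moved the same way as its readings. The differences from its own mean were -0.44, -0.53, 0.38 and 0.59, opposite in sign to those of Slc25a4 (0.27, 0.33, -0.26 and -0.34). The difference of Slc25a39 minus that of Slc25a4 was -0.71, -0.87, 0.64 and 0.94, a 3.48-fold span between replicates 2 and 4, and 2.86-fold under normexp. With spike-in scaling Slc25a39 itself stood at 0.01, 0.04, 0.21 and -0.26, while all detected genes had medians of 0.38, 0.51, -0.12 and -0.75. Relative to the median of all detected genes, Slc25a39 stood at -0.37, -0.47, 0.32 and 0.49 on both of these scales, and Slc25a4 at 0.34, 0.40, -0.32 and -0.44. Such relative values are equal on both by arithmetic, since the scales differ by 1 constant per array. The start of Slc25a39 is shown because its differences opposed those of Slc25a4 and its window has the most CpGs of the 38 matched members, 42, with CpGs again in capitals (chr10:87866924-87867223, minus strand, GRCr8, RefSeq).
Slc25a39: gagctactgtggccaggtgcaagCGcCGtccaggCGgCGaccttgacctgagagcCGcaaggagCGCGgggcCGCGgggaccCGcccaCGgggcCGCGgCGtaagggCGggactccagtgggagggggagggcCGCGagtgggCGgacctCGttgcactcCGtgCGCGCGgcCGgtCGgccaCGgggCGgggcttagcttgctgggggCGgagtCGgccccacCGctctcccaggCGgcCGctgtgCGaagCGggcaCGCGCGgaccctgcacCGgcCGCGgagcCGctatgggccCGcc
GGGCGG matched 5 times in it on either strand, the most of the 38.

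The mitoferrins import iron for haem and iron-sulphur clusters. Slc25a28, mitoferrin 2, the form found in most tissues, read 3.95, 3.81, 4.49 and 4.81 (4.26 ± 0.47). The highest was replicate 4 on this scale. The SD was 0.49 with local subtraction, 0.22 under normexp, where replicate 3 was highest, and 0.21 with spike-in scaling, where replicate 4 was lowest. Slc25a37, mitoferrin 1, the form of developing red cells, was also detected, at -0.45, -0.34, 0.22 and 0.17 (-0.10 ± 0.34). Its higher cultures were replicates 3 and 4, but the spots around its probe, near a corner of the array, moved likewise (local medians -0.33, -0.36, 0.32 and 0.36), and with these subtracted the SD was 0.09. Slc25a42, a carrier of coenzyme A, read -1.61, -1.24, -0.61 and -0.50 (-0.99 ± 0.53; SD 0.22 under normexp), with its second probe detected on no array. Slc25a51, which brings NAD into the matrix, read 3.09, 3.05, 2.88 and 2.87 (2.97 ± 0.12). All 5 of its probes were detected on all arrays, and 1 of them varied more (2.07, 2.26, 1.63 and 1.36). Slc25a32, a carrier linked to folate and FAD, read -0.11, -0.10, -0.12 and -0.65 (-0.24 ± 0.27) on its brighter probe. The other probe read -0.84, -0.71, -0.38 and -0.43, so the probes disagreed on whether replicate 4 was low. Under normexp the brighter probe lay at 0.14, 0.01, -0.03 and -0.12 from its mean. Slc25a16, linked to coenzyme A, was detected on replicates 1 to 3 at -1.30, -1.06 and -1.53 and read -3.02 on replicate 4. Slc25a17, a peroxisomal carrier of cofactors, read 2.77, 2.90 and 1.66 on replicates 1, 2 and 4, where it was detected, and -1.66 on replicate 3, inside the low oval. Local medians around its probe were 0.52, 0.47, -3.29 and -0.48 on replicates 1 to 4, so its surroundings were also low on replicate 4.

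Of the uncoupling proteins, Ucp2 alone was detected. Ucp2, the form known from immune cells, read 4.01, 4.09, 4.51 and 4.88 (4.38 ± 0.40), highest on replicate 4, with a span of 1.83-fold. Its SD was 0.25 with local medians subtracted, and under normexp its differences were -0.32, -0.18, 0.34 and 0.16, with replicate 3 highest. Ucp1, the heat-producing protein of brown fat, and Ucp3, the form of muscle and brown fat, were not above background by the scanner's mark on any array. Of the relatives, Slc25a14 read 1.44, 1.66, 1.71 and 1.62 (1.60 ± 0.12) and Slc25a30 read 0.86, 0.82, 0.95 and 0.74 (0.84 ± 0.08). Slc25a27, known from brain, was not well above background with any of its 4 probes. Ucp2 and Ucp3 are neighbours on chromosome 1, and their start windows are shown because 1 of the pair was detected and the other not (chr1:164251123-164251422, plus strand, and chr1:164227660-164227959, plus strand, GRCr8, RefSeq, CpGs in capitals).
Ucp2: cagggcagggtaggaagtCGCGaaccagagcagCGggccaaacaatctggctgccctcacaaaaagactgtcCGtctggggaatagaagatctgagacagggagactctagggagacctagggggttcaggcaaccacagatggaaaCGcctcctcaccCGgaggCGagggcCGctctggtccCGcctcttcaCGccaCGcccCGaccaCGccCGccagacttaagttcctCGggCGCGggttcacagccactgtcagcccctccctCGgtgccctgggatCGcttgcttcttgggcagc
Ucp3: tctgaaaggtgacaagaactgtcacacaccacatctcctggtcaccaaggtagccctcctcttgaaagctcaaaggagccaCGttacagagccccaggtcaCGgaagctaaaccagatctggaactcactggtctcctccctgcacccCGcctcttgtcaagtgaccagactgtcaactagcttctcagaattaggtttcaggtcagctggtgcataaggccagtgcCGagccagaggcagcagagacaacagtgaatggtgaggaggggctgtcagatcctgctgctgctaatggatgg
The window of Ucp2 holds 19 CpGs and that of Ucp3 holds 4. Neither had a match to the GC box, CCAAT box or TATA box letters.

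Among members with no role assigned here, Slc25a46, an outer-membrane protein that acts in mitochondrial shape, read 2.26, 2.40, 2.30 and 2.19 (2.29 ± 0.09). Slc25a43 was detected on replicates 2 and 3 (-1.96 and -1.75, with -3.10 and -2.56 on the others) and Slc25a54 on replicates 1 and 2 (-1.79 and -1.90, with -2.58 and -2.16 on the others). Slc25a53 was undetected on all 4 arrays. Such readings concern the probes used and do not show that a transcript was absent. In bulk RNA, fewer expressing cells and less RNA per cell cannot be told apart.

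The spread between cultures was uneven within the family. The median SD over the 26 detected members was 0.27, beside 0.25 for all 7363 detected genes, and it fell to 0.14 without replicate 4 (0.19 for all detected genes). The lower and upper quartiles were 0.10 and 0.41. An SD above 0.5 was found for 5 members (19.2%), where 11.6% of all detected genes had one: Slc25a39, Slc25a22, Slc25a42, Slc25a10 and Slc25a29. On this scale the smallest SDs belonged to Slc25a20 (0.05), Slc25a5 (0.08), Slc25a30 (0.08), Slc25a46 (0.09) and Slc25a24 (0.09). Which members were wide depended on the scaling and background correction. Centring arrays on the median of the detected genes gave 2 members (7.69%) above 0.5, where 9.40% of all detected genes were. Quantile normalization and local subtraction each gave 2 (7.69%), beside 9.06% and 10.3% of all detected genes. These members were all among the 5 named above. Without replicate 2 or without replicate 4 the count was 3 (11.5%), beside 11.3% and 5.47% of all detected genes. Without replicate 1 it was 5 (19.2%), beside 14.4%, and without replicate 3 it was 6 (23.1%), beside 16.4%. Under normexp 1 member (3.85%) was above 0.5, Slc25a3 (0.53), beside 6.99% of all detected genes. The 5 named above had SDs of 0.22 to 0.35. With spike-in scaling 14 members (53.8%) and 60.6% of all detected genes were above 0.5, with 0 of those 5 among them (0.15 to 0.32). Slc25a20, Slc25a5, Slc25a30, Slc25a46 and Slc25a24 then had SDs of 0.65, 0.72, 0.69, 0.73 and 0.60, and under normexp 0.25, 0.35, 0.15, 0.25 and 0.20.

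**Figure D3:**
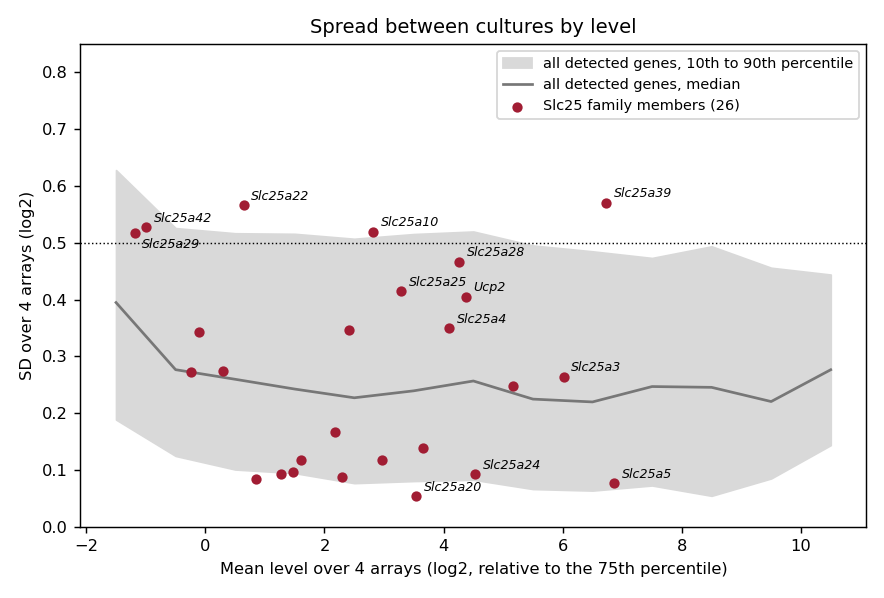
Each red point is 1 of the 26 detected members, at its mean level (horizontal axis, log2) and its SD over the 4 cultures (vertical axis, log2); the grey band holds the 10th to 90th percentile and the line the median of all detected genes in bins of 1 log2 unit, for bins of at least 20 genes. Members spread over the whole band, from Slc25a20 (0.05) to Slc25a39 (0.57), and the 5 above the dotted line at 0.5 have low and high levels alike; with spike-in scaling 0 of these 5 are above it.

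Most members were high or low on the same cultures as the bulk of the genes. The number of the 26 detected members above their own mean was 7 on replicate 1, 9 on replicate 2, 21 on replicate 3 and 16 on replicate 4. Over all detected genes these shares were 38.7%, 41.9%, 61.9% and 59.6%, and in the family they came to 26.9%, 34.6%, 80.8% and 61.5%. The median difference of the members from their own means was -0.11, -0.11, 0.10 and 0.09 on replicates 1 to 4, while for all detected genes it was -0.07, -0.07, 0.06 and 0.10. With spike-in scaling the family medians turned to 0.34, 0.46, -0.07 and -0.76, following all detected genes. Relative to these genes they lay at -0.04, -0.05, 0.04 and -0.00 with either scaling. That equality is arithmetic, since these scalings differ by 1 constant per array. Under normexp they were -0.02, 0.02, 0.16 and -0.14, with all detected genes at 0.01, 0.05, 0.09 and -0.13. The other Slc genes had medians of -0.23, -0.24, 0.17 and 0.35 on the same arrays. Among the detected carboxylate and acylcarnitine carriers, 0 of 4 lay above their own mean on replicates 1 and 2, 4 of 4 on replicate 3 and 3 of 4 on replicate 4. The opposite direction, high on replicates 1 and 2 and low on replicates 3 and 4, was seen in Slc25a4. To a smaller extent it was seen in the brightest probe of Slc25a51 (differences 0.12, 0.08, -0.10 and -0.10, with replicate 3 at 0.13 under normexp). The second brightest probe of Slc25a51 read 2.09, 2.12, 2.10 and 1.90 and the dimmest 0.09, 0.05, 0.09 and -0.33. On both of these, replicate 3 lay above the mean of the probe.

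**Figure D4:**
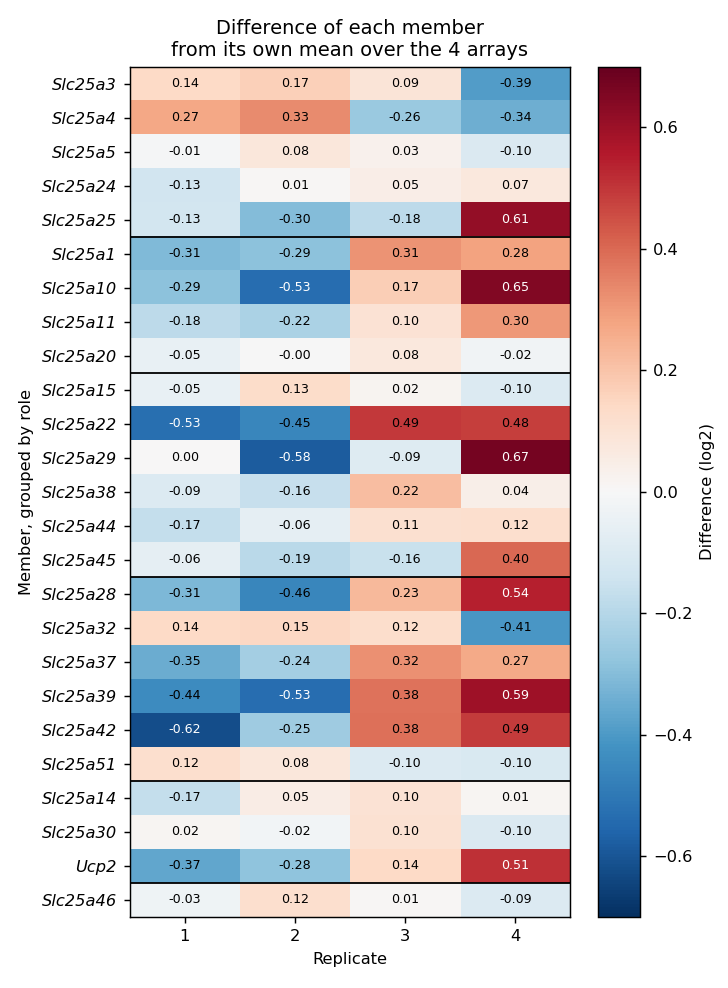
The colour and number in each cell give how far a member (row) lay on an array (column) from its own mean over the 4 arrays, in log2 units, for 25 of the 26 detected members grouped by role. Slc25a1, Slc25a10, Slc25a11, Slc25a22, Slc25a28, Slc25a37, Slc25a39, Slc25a42 and Ucp2 are red on replicates 3 and 4, while Slc25a4 shows the reverse (0.27 and 0.33, then -0.26 and -0.34); with spike-in scaling 0 of the 26 members were above their mean on replicate 4.

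Genes that serve the carriers were mostly detected too. Carriers enter the inner membrane through the small TIM chaperones and the TIM22 complex, and all 10 measured genes of this import route were detected. Among them Tomm40 (1.67 ± 0.35), the outer-membrane pore, Timm8a1 (2.24 ± 0.30) and Timm10b (4.42 ± 0.27) varied most. Of 13 genes for other mitochondrial carriers and channels, 10 were detected, including the pyruvate carrier genes Mpc1 (6.39 ± 0.16) and Mpc2 (5.61 ± 0.21). The sideroflexin genes Sfxn1 and Sfxn2 were detected on no array. Mtch1, which encodes a carrier-like protein of the outer membrane, read 7.75, 7.69, 8.57 and 9.02 (8.26 ± 0.65), the widest of that list, with the same cultures high as for Slc25a39. The porin gene Vdac3 read 6.68, 6.71, 6.16 and 5.89 (6.36 ± 0.40), high on the same cultures as Slc25a4, and Sfxn3 lay at 4.56 ± 0.37.

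Enzymes of the metabolite shuttles were detected in 11 of 12 cases, Cpt1b, the muscle form of carnitine palmitoyltransferase, being detected on 2 arrays. Cytosolic and mitochondrial partners of the aspartate/glutamate carriers were present, with Got1 at 3.74 ± 0.16, Got2 at 4.42 ± 0.26, Mdh1 at 4.82 ± 0.15 and Mdh2 at 5.06 ± 0.11. The widest of this list were Crat (5.03 ± 0.41), Gpd1 (4.17 ± 0.39) and Got2. Among enzymes that make or use substrates of the carriers, 10 of 14 were detected. Against the majority, Alas2, the red cell enzyme of haem synthesis, Ass1 and Otc of the urea cycle were detected on no array and Cps1 on 1. The widest there were Pycr1 (-0.52 ± 0.54) and Mthfd2 (6.54 ± 0.46, inside the low oval of replicate 3).

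The calcium uniporter list had 2 of 4 measured genes detected, among them Micu2 (2.81 ± 0.24), a regulator of the channel. The channel gene Mcu was detected on 3 arrays and Micu3 on none. Of 8 regulators of mitochondrial genes, 5 were detected. Gabpa (0.14 ± 0.48), Pprc1 (1.89 ± 0.42) and Esrra (5.51 ± 0.31) varied most, while Ppargc1a and Ppara were detected on no array and Ppargc1b on 2. These counts stand beside 44.4% of all measured genes, with no test.

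Marker genes of other tissues and cell types were mostly not detected. No marker of hepatocytes (Alb, Ttr, Apoa1, Cps1, Otc), neurons (Snap25, Syt1, Rbfox3, Tubb3, Slc17a7), lung epithelium (Sftpc, Sftpb, Epcam, Scgb1a1, Krt18) or testis germ cells (Prm1, Prm2, Tnp1, Ddx4, Sycp3) was detected on all 4 arrays, 0 of 5 in each list. Of these, Prm1 and Prm2 were detected on 2 arrays and Cps1, Syt1 and Krt18 on 1. Of 4 brown fat markers measured, Cidea was detected (3.05 ± 0.20), Elovl3 on 1 array, and Dio2 and Adipoq on none. Of 6 muscle markers, Actc1 (3.82 ± 0.34) and Tnnt2 (1.42 ± 0.25) were detected, and Ckm, Acta1, Myh6 and Myh7 on no array. Among 4 red cell markers, Hba-a1 (1.52 ± 0.20) and Epor (-0.23 ± 0.23) were detected and Hbb and Alas2 on none, beside the detection of mitoferrin 1. Prdm16 had no named probe. The summed signal of each list, as a multiple of the array's 75th percentile, is given for its range over the arrays only, since lists rest on different probes. It ranged over the 4 arrays from 2496 to 2746 for macrophage markers, 7.35 to 9.64 for brown fat, 13.8 to 21.0 for muscle and 3.27 to 4.33 for red cells. It ranged from 0.222 to 0.900 for hepatocytes, 0.595 to 0.801 for testis, 0.292 to 0.688 for neurons and 0.245 to 0.620 for lung epithelium. The part of such cells or genes in the levels of members was not tested.

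Members that were detected had start windows richer in CpG than members that were not. RefSeq windows of 300 bases were matched for 38 of the 43 members. Slc25a30, Slc25a32, Slc25a37 and Slc25a46 were among those with none. The median number of CpGs was 22 in the 21 windows of detected members, 16 in the 7 of members detected on 1 to 3 arrays and 7.5 in the 10 of members detected on no array. Over all measured genes the medians were 21 in detected genes and 6 in genes detected on no array, so this difference is not particular to the family. Genes detected on 1 to 3 arrays were not summarized over all measured genes. The groups overlapped: Slc25a15 was detected with 6 CpGs, and Slc25a23 and Ucp1 were not with 17 each. GGGCGG on either strand was present in 17 of 21 windows of detected members and 3 of 10 of undetected ones, and in 62.9% and 32.7% of the windows of all genes detected and detected on no array. CCAAT, again on either strand, was present in 19 of 38 members and 37.7% of all 27457 windows, and TATAAA in 2 of 38 and 14.3%. In detected members they were in 10 and 1 of 21 windows, beside 39.7% and 7.0% of the windows of all detected genes. In members detected on no array they were in 5 and 1 of 10, beside 36.9% and 17.6% over all such genes. The consensus site of NRF1, a regulator of mitochondrial genes, was in 0 of 38 members' windows and 0.932% of all windows, and TCAAGGTCA, the letters of the estrogen-related receptors, in 0 and 0.412%. Among the windows of all detected genes these sites were in 2.12% and 0.21%. A match or its absence describes the letters in these windows only.

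**Figure D5:**
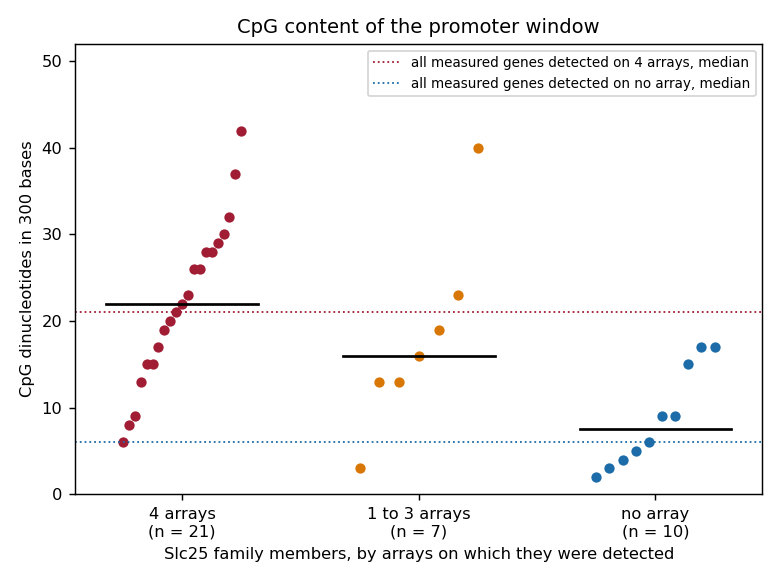
Each point is 1 member's start window of 300 bases, with the number of CpG dinucleotides on the vertical axis and the members split by the number of arrays on which they were detected; black bars are medians (22, 16 and 7.5) and dotted lines the medians of all measured genes detected on 4 arrays (21) and on none (6). Detected members reach up to 42 CpGs, undetected ones up to 17.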

How the data were processed

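Messenger RNA was measured in 4 cultures on 1-colour arrays from 100 ng of RNA each with an integrity number above 7.5, per the labels' protocols. The deposited values are spot intensities read by the authors with Agilent Feature Extraction 11.0.1.1, per the file headers and the submitters' processing notes; the processed signal is background-subtracted and spatially detrended within an array and not normalized between arrays. The detection, saturation and outlier marks deposited are other values of 0 or 1, per the file headers. No sample spot was saturated.

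The log2 of the processed signal was taken, outlier spots were left out, replicate spots were averaged per probe, and each array was centred on its 75th percentile (45598 sample probes). Accessions were matched to the RefSeq gene table of GRCr8, which named 21109 probes, 60 of them for members. The file headers name another build, so coordinates are those of the RefSeq start windows only. Detection needed the mark on over 50% of a probe's spots. The local median is that of the 25 nearest spots well above background on the other 3 arrays. Alternatives were normexp on spot and background medians, other centrings, quantile normalization, other rules for probes and detection, and leaving out each replicate. With 1 group there is no test; the number of arrays limits the precision. Members and lists were chosen with earlier results of these data known. By the rule for named genes, every measured member is named, with values on every array for those detected on all or some arrays, and of the lists the genes against the majority and the 3 widest detected ones; a few genes this rule names are counted but not reported here. The planned comparison of protein sequences was not run. Functions for SD and difference were tested on simulated data. Python 3.11.15, numpy 2.4.6, pandas 2.3.3, scipy 1.17.1, matplotlib 3.10.9, R 4.3.3 and limma 3.58.1 (normexp, offset 50) were used.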

Additional observations from a re-analysis of the deposited data

Results flagged for a closer look

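Of the 33 members detected on at least 1 array, 2 had a culture far from the other 3, by a gap to its nearest neighbour, as a share of the whole range, above Dixon's critical value for 4 samples; chance gives about 1 in 20 such groups. For Slc25a3, the phosphate carrier gene, the gap was 0.865 of the range, with replicate 4 at 5.62 and the others at 6.10 to 6.18. The local median around its probe on replicate 4 was -0.30. For Slc25a32 the gap was 0.957 of the range, with replicate 4 at -0.65 and the others at -0.12 to -0.10, while its other probe read -0.43 on replicate 4 and -0.84 to -0.38 on the others.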

How the results depend on the processing

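The number of members detected on all arrays kept within 1.5 times of 26 under every alternative run (22 to 31). The median SD of 0.27 became 0.55 with spike-in scaling and 0.14 to 0.31 when 1 replicate was left out, the lowest without replicate 4. The median difference of the members from their own means turned sign with spike-in scaling on all 4 arrays (0.338, 0.464, -0.0715 and -0.758) and under normexp on replicates 2 and 4 (0.0195 and -0.137); the other alternatives kept its sign on each array. Subtraction of local medians was chosen after seeing the data; it gave a median SD of 0.20 and differences of -0.13, -0.10, 0.11 and 0.12. Of the 33 levels compared, normexp moved 28 by more than 1 SD, the mean of a gene's probes 7, and quantile normalization and local subtraction 0. Centring on the median of detected genes moved all 33, but it shifts the mean level of every gene by the same amount. Leaving out 1 of 4 arrays moved 0, a count fixed in advance because it cannot move a mean by more than 1 SD. No paired analysis was possible because there is 1 group. Signal over background limits Slc25a16, Slc25a33, Slc25a34, Slc25a35, Slc25a43 and Slc25a54, and the area of low signal limits Slc25a17 and Slc25a34.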
